A study of Mus musculus with 23 samples.

Results

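The mitochondrial chromosome of mouse embryonic stem cells was examined on both of its strands in crosslinking and immunoprecipitation sequencing (CLIP-seq) of Upf1. Each strand of the chromosome was divided into fixed windows of 50 nt, and each distinct alignment (start, end and strand, taken once per library) was placed by its midpoint. Of 652 windows, 224 held at least 1 of the 1079 distinct mitochondrial alignments, 173 of them on the plus strand and 51 on the minus strand. The whole genome held 366484 distinct alignments, and 235250 windows were hit. All 10 libraries came from v6.5 cells, a line of embryonic stem cells, which had been separated from feeder fibroblasts and irradiated with ultraviolet light of 254 nm at 400 mJ/cm2. A rabbit antibody against Upf1 or control IgG was applied to lysates of untreated cells, in 3 libraries per antibody labelled A1, A2 and I, or of cells given cycloheximide at 100 µg/ml for 2 h, in 2 libraries per antibody labelled A1 and A2. Samples of mRNA-seq (10) and ribosome profiling (3) in the same series were not analysed here. Nothing in the labels ties a library to its own culture, so each p-value speaks only of the spread among libraries, which may be technical.

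The mitochondrial genome is a small circle whose strands are each transcribed into long precursor RNAs. Most genes, including both rRNAs, lie on what is the plus strand here, while ND6 and a minority of the tRNAs are read from the minus strand. The tRNAs sit between the larger genes, and their excision releases the rRNAs and mRNAs; the RNA opposite a gene, left over from the other precursor, is normally degraded. Upf1 is an RNA helicase of nonsense-mediated decay that works on RNA outside mitochondria, and cycloheximide blocks the elongation of cytosolic ribosomes but not of mitochondrial ones. The control IgG libraries give the background for mitochondrial RNA measured the same way.

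The libraries were uneven. They held 7215 to 97651 distinct alignments each, of which 10 to 539 were mitochondrial. Mitochondrial reads reached 38 nt in 7 libraries but only 34 nt in both untreated I libraries and in Upf1 untreated A1, and these 3 held 923 of the 1079 alignments. A molecule is an alignment together with the 2 random letters of its adapter. Of the mitochondrial molecules, 78.9% in IgG untreated A2, 93.3% in IgG cycloheximide A1 and 83.3% in IgG cycloheximide A2 were also present in another library, as were 54.8% in Upf1 cycloheximide A1 and 54.5% in Upf1 cycloheximide A2. The share was 5.10% in Upf1 untreated I, 7.50% in IgG untreated I and 0 in IgG untreated A1. Libraries that share many molecules may not be independent, and why they share them was not tested. In IgG untreated A1, 1142 lines stood at only 19 mitochondrial positions, 60.1 lines a position, against 21.99 on other chromosomes. Counting each position once removes this difference in copies.

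Both untreated I libraries stood apart in how much mitochondrial RNA they held. The mitochondrial share of distinct alignments was 0.604% in Upf1 untreated I and 0.587% in IgG untreated I. With Upf1, untreated A1 was at 0.107% and untreated A2 at 0.0489%, and the cycloheximide libraries were at 0.0786% (A1) and 0.108% (A2). With IgG, untreated A1 was at 0.184% and untreated A2 at 0.206%, and the cycloheximide libraries were at 0.18% (A1) and 0.178% (A2). The I libraries were thus above all others with either antibody, and together they supplied 819 alignments, 75.9% of the total, against 260 from the other 8. In such bulk libraries, a difference in the cells and a difference in RNA per cell cannot be told apart. What set the I libraries apart was not tested. Their reads reached only 34 nt, as did those of Upf1 untreated A1, which was at 0.107%.

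**Figure D1:**
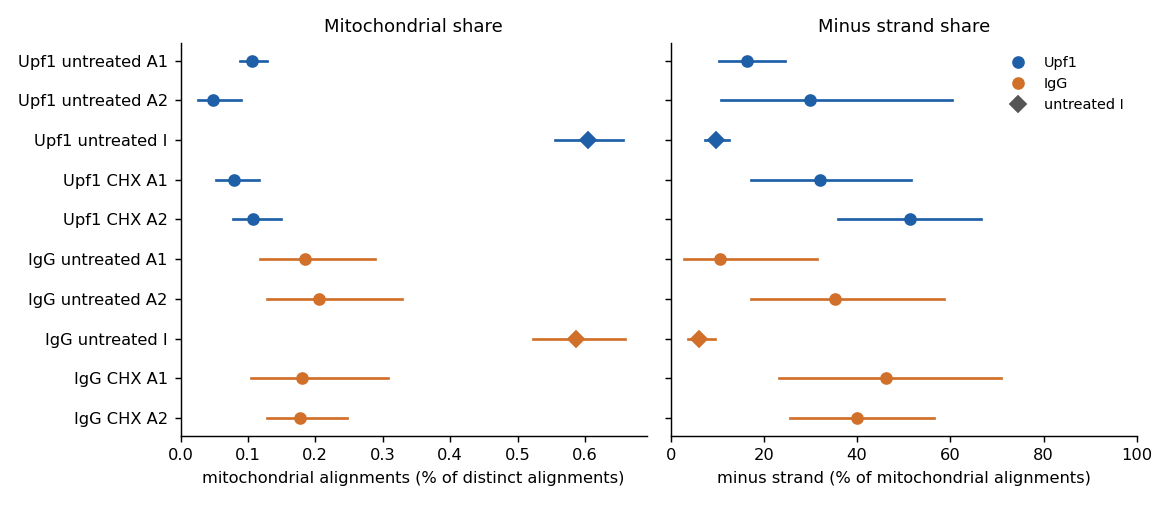
Left, the mitochondrial share of distinct alignments (%) in each of the 10 libraries; right, the minus strand share of mitochondrial alignments (%). Points are single libraries (blue Upf1, orange IgG, diamonds the untreated I libraries, CHX cycloheximide) and lines are 95% Wilson intervals, which cover counting error only. The I libraries lie at 0.604% and 0.587% on the left, and all 4 cycloheximide libraries lie at 32.0% or more on the right.

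The first comparison asked whether mitochondrial RNA was recovered to a different extent with Upf1 than with control IgG. The mean mitochondrial share was 0.189% ± 0.233 (SD, n = 5) with Upf1 and 0.267% ± 0.179 (SD, n = 5) with IgG. The difference of -0.078 percentage points was smaller than the spread between libraries (exact two-sided permutation p = 0.460, adjusted p = 0.976 over 6 shares). Without the I libraries, the 4 Upf1 libraries lay between 0.0489 and 0.108% and the 4 IgG libraries between 0.178 and 0.206%. Since the I libraries were set apart for this share, these ranges are a description with no test.

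Alignments were concentrated on the rRNAs and on a few sites in mRNAs. Of the 29 windows with at least 10 alignments, 27 were on the plus strand and 18 of these lay in an rRNA. Windows hit in 1 library alone numbered 85, and 130 windows were hit only in the I libraries. Upf1 untreated I hit 187 windows and IgG untreated I hit 115; the 98 in common were 52.4% of the first set and 85.2% of the second. The 10 fullest windows held 22.5% of the alignments of the I libraries, 34% of those of the untreated A1 and A2 libraries and 53.6% of those of the cycloheximide libraries. These sets differ in depth (819, 150 and 110 alignments), and the cycloheximide libraries share molecules with each other.

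**Figure D2:**
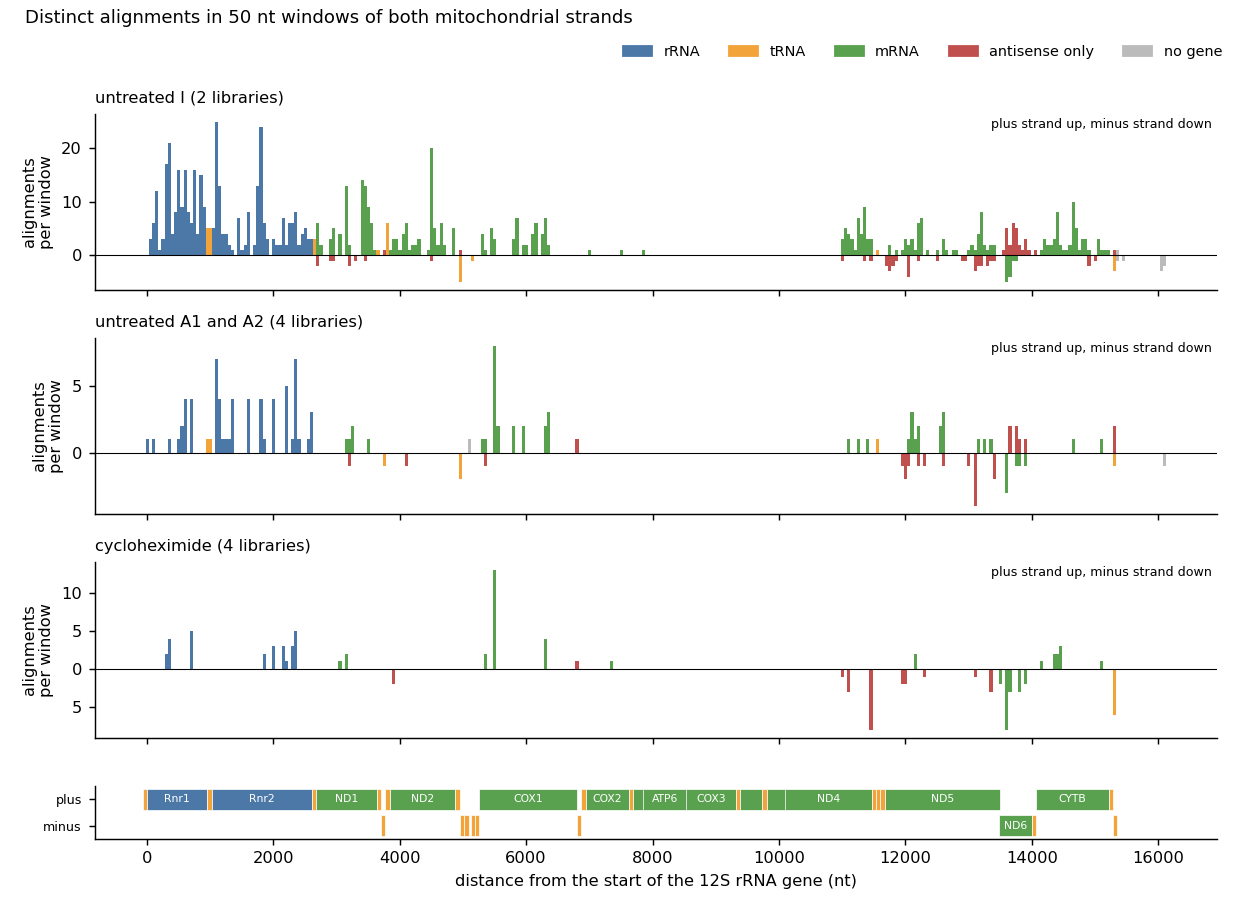
Distinct alignments per 50 nt window (vertical axis, plus strand upward and minus strand downward) against distance from the start of the 12S rRNA gene (nt), summed over the 2 untreated I libraries (top), the 4 untreated A1 and A2 libraries (middle) and the 4 cycloheximide libraries (bottom). Colours give the class that covers most of a window, and the lowest strip shows the genes of each strand. The I libraries cover most windows of both rRNAs, all sets are almost empty between the middle of COX1 and the middle of ND4, and the cycloheximide libraries show 1 tall COX1 window.

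The rRNA stretches, 12S (mt-Rnr1) and 16S (mt-Rnr2), encode the RNA of the small and the large mitochondrial ribosomal subunit. The 16S stretch held 239 alignments and was hit in all 10 libraries. The 12S stretch held 203 and was hit in 8, with none in Upf1 untreated A2 or IgG untreated A1. Per 1000 nt, the 12S stretch held 185 alignments in the I libraries (95% Poisson interval 159 to 215) and the 16S stretch held 109 (93.7 to 127). The other 8 libraries together held 27.2 on 12S (17.8 to 39.9) and 41.7 on 16S (32.3 to 53.1), with overlapping intervals. This lower value for 12S came from the untreated A1 and A2 libraries, with 15.7 and 31.0, and mainly from Upf1 untreated A1 (12 and 31 alignments) and IgG untreated A1 (0 and 10). In the cycloheximide libraries the densities were 11.5 (5.75 to 20.6) and 10.7 (6.26 to 17.2). Poisson and Wilson intervals cover counting error only, since PCR reads are not independent molecules.

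The window with the most alignments was 1151 to 1200 in 16S. It held 5 alignments in Upf1 untreated A1, 12 in Upf1 untreated I, 2 in IgG untreated A1 and 13 in IgG untreated I, 32 in all at 30 positions. The next, 1851 to 1900, also in 16S, held 4 in Upf1 untreated A1, 9 in Upf1 untreated I and 15 in IgG untreated I. The 12S window 651 to 700 held 4, 7 and 9 in the same 3 libraries. None of these 3 windows was hit in a cycloheximide library, where 0 of 110 mitochondrial alignments allows a share of up to 2.73% for each. Other full windows were spread over more libraries. The 16S window 2401 to 2450 held 20 alignments over 8 libraries, with 2 in Upf1 untreated A1, 3 in Upf1 untreated A2, 5 in Upf1 untreated I, 1 and 2 in the Upf1 cycloheximide libraries, 2 in IgG untreated A2, 3 in IgG untreated I and 2 in IgG cycloheximide A2. In 12S, the window 401 to 450 held 26, of which 17 came from Upf1 untreated I and 4 from IgG untreated I. Its neighbour 351 to 400 held 19, with 6 from Upf1 untreated I and 11 from IgG untreated I.

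The 13 protein-coding stretches specify subunits of the respiratory chain complexes and of ATP synthase, and 9 had at least 1 sense alignment. COX1, the catalytic subunit of cytochrome c oxidase, held 90 alignments and was the only mRNA hit in all 10 libraries. It held 11, 2 and 40 alignments in Upf1 untreated A1, A2 and I, 4 and 5 in the Upf1 cycloheximide libraries, 4, 4 and 10 in IgG untreated A1, A2 and I, and 2 and 8 in the IgG cycloheximide libraries. Outside the I libraries, COX1 was the mRNA with the most alignments. A single window in its 5′ part, 5551 to 5600, held 24 of the 90, with 2, 2 and 3 in Upf1 untreated A1, A2 and I, 3 and 2 in the Upf1 cycloheximide libraries, 1 and 3 in IgG untreated A1 and A2, none in IgG untreated I, and 2 and 6 in the IgG cycloheximide libraries. This window was hit in 9 libraries with both antibodies, at 12 positions, and 13 of its 37 molecules, counted per library, were found in more than 1 library. In IgG untreated A1, 1 position there, 5549 to 5586, took up 142 lines made of 9 molecules.

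Complex I, which oxidises NADH, has several plus strand subunits, and they differed in how much of their signal came from the I libraries, which supplied 75.9% of all mitochondrial alignments. That part was 100% for ND2, 93.3% for ND4, 90.7% for ND1 and 77.0% for ND5, beside 79.2% for the rRNAs together and 55.6% for COX1. ND2 held 67 alignments, 55 in Upf1 untreated I and 12 in IgG untreated I. It held none of the 260 alignments of the other 8 libraries, which allows a share of up to 1.15%. Its window 4551 to 4600 alone held 16 and 4. ND1 held 53 and 25 alignments in the I libraries and 8 in the others together, and ND4 held 27 and 15 against 3. ND5 held 42 and 15 in the I libraries and 17 in the others, of which 13 were in Upf1 untreated A1. CYTB, the cytochrome b of complex III, held 39 and 15 against 11. Per 1000 nt outside the sparse span described next, the I libraries held 83.8 sense alignments on ND4, 81.5 on ND1, 64.5 on ND2, 47.2 on CYTB, 45.6 on COX1 and 31.3 on ND5. The other 8 held 36.5 on COX1, 9.62 on CYTB, 9.32 on ND5, 8.36 on ND1, 5.99 on ND4 and 0 on ND2.

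**Figure D3:**
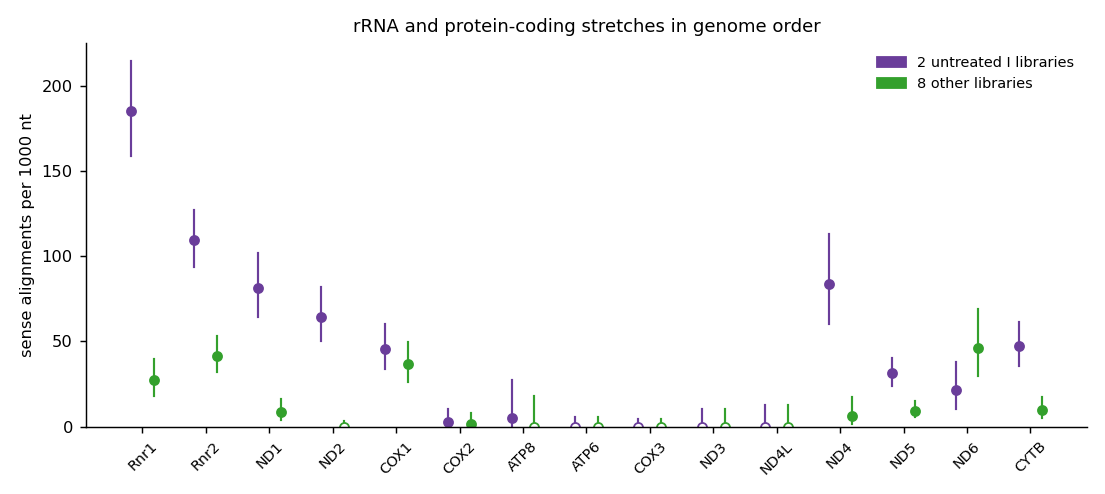
Sense alignments per 1000 nt of each rRNA and protein-coding stretch, in the order of the genome, in the 2 untreated I libraries together (purple) and the other 8 together (green); lines are exact 95% Poisson intervals and open points mark 0. COX1 and ND4 are scaled to their length outside the sparse span. 12S reaches 185 in the I libraries, ND6 is at 46.2 in the other libraries and 21.2 in the I libraries, and the stretches from COX2 to ND4L lie near 0.

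A span of 4620 nt, positions 6424 to 11043, was almost empty in all libraries. It makes up 28.3% of the mitochondrial genome and held 6 alignments, 0.556% of the total (95% Wilson interval 0.255 to 1.21%). All 6 were on the plus strand, at 5 positions in 4 libraries. In the 500 nt before it there were 39 alignments and in the 500 nt after it 60. Of 11 stretches wholly inside, 8 had no alignment. COX2 held 3 and ATP8 held 1, while ATP6, COX3, ND3 and ND4L held 0, each of which allows up to 0.278% of the mitochondrial alignments. These genes include subunits of cytochrome c oxidase and ATP synthase as well as of complex I. The longest run without any alignment on either strand was 3115 nt, positions 7929 to 11043. Parts of the mouse mitochondrial genome have near-identical copies on nuclear chromosomes, and how the authors placed reads with several matches is not given in the sources used here. The low values of the stretches in this span are therefore uncertain.

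tRNA stretches held few alignments. Of 22, 9 had a sense alignment, 39 alignments in all. TrnP, the proline tRNA of the minus strand, was the only one with 10. Its window 15351 to 15400 was hit in 7 libraries, with 1 each in Upf1 untreated A1 and I, 1 and 3 in the Upf1 cycloheximide libraries, 2 in IgG untreated I, and 1 each in the IgG cycloheximide libraries. TrnV, the valine tRNA between the rRNAs, held 8 alignments, 7 of them in the I libraries. TrnA, the alanine tRNA of the minus strand, held 5 in Upf1 untreated I, 1 in Upf1 untreated A1 and 1 in IgG untreated A1, and its window 5001 to 5050 was among the 5 fullest of the minus strand.

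Few alignments ran across the border between neighbouring stretches of 1 strand. With at least 5 nt required on each side, only 1 of 26 borders was crossed, that from 16S to TrnL1, the leucine tRNA after it, by 2 alignments in 1 of the I libraries. Outside the sparse span, 1 of 16 borders was crossed (6.25%), with a mean of 0.125 alignments, while 62.6% of 8976 positions at least 40 nt inside a stretch were crossed, with a mean of 2.34. Most of these borders adjoin a tRNA, and tRNAs themselves held few alignments.

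The minus strand held 144 alignments, which lay mainly at its own gene ND6 and opposite ND5 and ND4. ND6, a subunit of complex I, held 35 alignments in the sense orientation and was hit in 8 libraries. It held 3 and 6 in Upf1 untreated A1 and I, 4 and 7 in the Upf1 cycloheximide libraries, 3 and 5 in IgG untreated A2 and I, and 1 and 6 in the IgG cycloheximide libraries. It was the only mRNA with a higher density in the other 8 libraries together, at 46.2 per 1000 nt (29.6 to 68.8), than in the I libraries, at 21.2 (10.6 to 37.9). These Poisson intervals overlap. The ND6 window 13651 to 13700 was the fullest of the minus strand, with 16 alignments in 8 libraries at 8 positions, and 13 of its 20 molecules, counted per library, were shared between libraries.

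Opposite ND5, 50 minus strand alignments were found in 9 libraries, all but IgG untreated A1, and they made up 34.7% of that strand's total. Of these, 21 (42%) lay within 500 nt of the ND5 3′ end, which is 27.4% of the stretch, and 26 (52%) within 1000 nt, which is 54.8% of it. The fullest window there, 13151 to 13200, held 3 alignments each in Upf1 untreated A2 and Upf1 untreated I, 1 in IgG untreated A2 and 1 in IgG cycloheximide A2. Opposite ND4, 15 alignments were found, 12 of them in the cycloheximide libraries. Its window 11501 to 11550 held 4 in Upf1 cycloheximide A2, 2 in each IgG cycloheximide library and 1 in IgG untreated I. Of its 12 molecules, counted per library, 8 were found in more than 1 library. The window 11151 to 11200 held 3 alignments, all in cycloheximide libraries and at 1 position, and all 3 of its molecules were shared. The count with cycloheximide thus includes the same molecules found in more than 1 library. Opposite ND1, 8 of 9 alignments came from Upf1 untreated I. Over all plus strand mRNAs, 431 sense alignments stood against 82 on the minus strand. The rRNAs differed from this, with 442 sense alignments and none on the minus strand, which allows a share of up to 0.679%.

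On the plus strand, the RNA opposite ND6 was found only in libraries with 34 nt reads, with 6 alignments in Upf1 untreated A1, 19 in Upf1 untreated I and 7 in IgG untreated I. The 7 libraries with 38 nt reads held none among 156 mitochondrial alignments, which allows a share of up to 1.92%. Among these, the 3 untreated libraries with 38 nt reads held none of 46, which allows up to 6.52%.

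The control region, the main noncoding part where replication and transcription start, held 8 minus strand alignments and no plus strand ones. In Upf1 untreated I and A1, 3 alignments had their 5′ ends at positions 16187 and 16188, and 3 more in Upf1 untreated I had theirs at 16144, 16146 and 16158. IgG untreated I held 2, with 5′ ends at 15458 and 15534.

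The untreated I libraries, shown apart, differed from each other in composition. The rRNA share was 35.6% in Upf1 untreated I (95% Wilson interval 31.7 to 39.8%) and 56.4% in IgG untreated I (50.6 to 62.1%). The mRNA share was 49.2% (45 to 53.4%) and 34.6% (29.3 to 40.4%). ND2 made up 10.2% of the alignments in Upf1 untreated I (7.92 to 13.05%) and 4.29% in IgG untreated I (2.47 to 7.34%). For these 3 shares the intervals do not overlap, but there is 1 library of each kind, so these compare the libraries and not the antibodies. The 12S and 16S stretches took nearly equal parts within each library, 18.0% and 17.6% with Upf1 and 28.6% and 27.9% with IgG. The minus strand share was 9.65% and 6.07%, with overlapping intervals (7.43 to 12.4% and 3.82 to 9.51%).

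Across all libraries, no part of the composition of the mitochondrial alignments passed the test between Upf1 and IgG. The rRNA share was 36.7% ± 9.68 with Upf1 and 37.1% ± 17.5 with IgG (SD over 5 libraries each, exact permutation p = 0.952). The mRNA share was 39.8% ± 12.9 and 41.5% ± 5.93 (exact permutation p = 0.825), the tRNA share 4.09% ± 2.90 and 3.73% ± 2.89 (exact permutation p = 0.841). Alignments opposite a gene made up 18.9% ± 8.20 and 17.6% ± 11.6 (exact permutation p = 0.825), and the minus strand share was 27.9% ± 16.1 and 27.6% ± 18.1 (exact permutation p = 0.976). The adjusted p was 0.976 for all 6 shares. The rRNA share reached a difference of 14.0 points without molecules found in more than 1 library, against -0.43 points with them (exact permutation p = 0.373). In that setting the rRNA share was 0 of 1 alignment in IgG cycloheximide A1 and 0 of 4 in IgG untreated A2.

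Cycloheximide, compared with no treatment, gave its largest differences in the rRNA share and the minus strand share, and neither passed the adjusted threshold of 0.05. The 100 permutations of treatment allow no p under 0.01, so 1 share alone could not pass after adjustment over 6 shares. With Upf1 the rRNA share was 41.3%, 50% and 35.6% in untreated A1, A2 and I, and 32.0% and 24.3% in cycloheximide A1 and A2. With IgG it was 52.6%, 35.3% and 56.4%, and 15.4% and 25.7%. All 4 cycloheximide libraries lay below all 6 untreated ones, with means of 24.4% ± 6.85 (SD, n = 4) and 45.2% ± 9.05 (SD, n = 6). The difference was -20.9 points (exact two-sided permutation p = 0.02 with treatments permuted within each antibody, adjusted p = 0.06 over 6 shares). It was -20.5 points without the I libraries. Without IgG untreated I it was -18.6 points, with an adjusted p of exactly 0.05 (exact permutation p = 0.0167), on the threshold and not under it. Without molecules found in more than 1 library it was -18.4 points (exact permutation p = 0.23, adjusted p = 0.52). That setting leaves 1 alignment in IgG cycloheximide A1, 4 in IgG untreated A2, 7 in IgG cycloheximide A2 and 8 in Upf1 untreated A2. Its shares are therefore coarse. The treatments overlapped in it, since Upf1 cycloheximide A1 was at 50% of 14 alignments. Upf1 untreated A1, A2 and I were then at 40.2%, 50% and 35.6%. With all molecules, the rRNA difference within each antibody was -14.2 points for Upf1 and -27.6 for IgG (exact permutation p = 0.2 each, 2 against 3 libraries). The 10 permutations there cannot give a p under 0.05. Summed over libraries, 16S made up 32.7% of alignments in the untreated A1 and A2 libraries and 15.5% in the cycloheximide libraries. The 12S share was 10% in both of these sets and 21.6% in the untreated I libraries, where 16S made up 21.1%. Upf1 untreated A1 alone supplied 104 of the 150 alignments of the untreated A1 and A2 set.

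**Figure D4:**
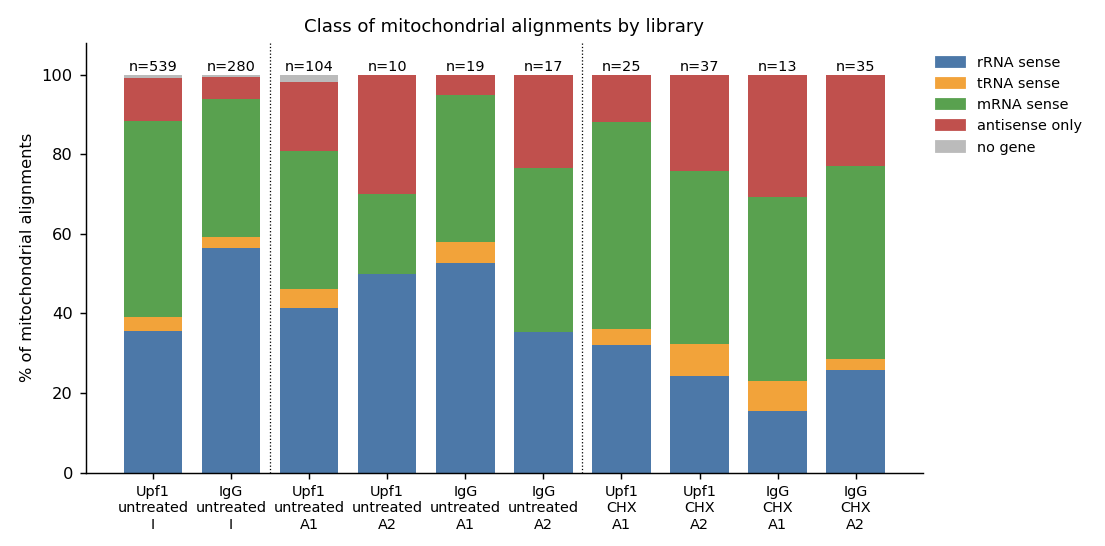
Percent of mitochondrial alignments in each class for the 2 untreated I libraries, the 4 untreated A1 and A2 libraries and the 4 cycloheximide (CHX) libraries, separated by dotted lines; n is the number of mitochondrial alignments behind each bar. The rRNA part is between 15.4 and 32.0% in the cycloheximide bars and between 35.3 and 56.4% in the untreated bars, and 7 of the 10 bars rest on fewer than 40 alignments.

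The minus strand share with Upf1 was 16.3%, 30.0% and 9.65% in untreated A1, A2 and I, and 32.0% and 51.4% in cycloheximide A1 and A2. With IgG it was 10.5%, 35.3% and 6.07%, and 46.2% and 40%. The treatments overlapped, since IgG untreated A2 lay above Upf1 cycloheximide A1. The means were 42.4% ± 8.33 with cycloheximide (SD, n = 4) and 18.0% ± 11.9 without (SD, n = 6). The difference was 24.4 points (exact permutation p = 0.02, adjusted p = 0.06). It was 19.3 points without the I libraries and 22.01 points without IgG untreated I, where the adjusted p was again exactly 0.05 (exact permutation p = 0.0167). Without molecules found in more than 1 library it was 2.44 points (exact permutation p = 0.95), and with both of these exclusions -5.67 points. Of the molecules on the minus strand of the cycloheximide libraries, 42 of 57 (73.7%) were also present in another library. In the untreated A1 and A2 libraries, 6 of 43 (14.0%) were. Sharing was not particular to the minus strand. On the plus strand it was 48 of 75 (64.0%) with cycloheximide and 14 of 217 (6.45%) in the untreated A1 and A2 libraries. Summed over libraries, ND6 made up 16.4% of the alignments with cycloheximide and 4.00% in the untreated A1 and A2 libraries. The stretch opposite ND4 made up 10.9% with cycloheximide and 0.366% in the untreated I libraries, and had no alignment in the untreated A1 and A2 libraries.

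None of the other shares passed the test between treatments. The mRNA share was 47.5% ± 3.71 with cycloheximide and 36.1% ± 9.60 without (SD, n = 4 and 6, exact permutation p = 0.07, adjusted p = 0.14). The tRNA share was 5.66% ± 2.63 and 2.74% ± 2.29 (exact permutation p = 0.13). Alignments opposite a gene made up 22.5% ± 7.79 and 15.4% ± 10.1 (exact permutation p = 0.28). The antibodies differed in direction here, with -1.19 points for Upf1 and 15.4 points for IgG, and that difference between antibodies was not tested. The mitochondrial share itself was 0.136% ± 0.051 with cycloheximide and 0.290% ± 0.244 without (exact permutation p = 0.34). It differed by -0.00023 points without the I libraries.

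Single windows were tested by limma-voom over the 1269 windows of the whole genome that held at least 10 alignments in all and were hit in at least 3 libraries, with Benjamini-Hochberg adjustment over all of them. Of the 29 mitochondrial windows with at least 10 alignments, 22 entered the test. For Upf1 against IgG, 0 of the 22 passed, beside a background of 0% of the 1269, and none had an unadjusted p under 0.05. With library totals in place of the trimmed mean of M values, 10 of the 22 were lower with Upf1 at an unadjusted p under 0.05, as were 20.5% of the 1269, and again 0 passed after adjustment. The highest log2 ratio of Upf1 to IgG was 0.69 ± 0.74 (SE) in the COX1 window 6351 to 6400, followed by 0.46 and 0.29 in the 16S windows 2401 to 2450 and 2051 to 2100. The IgG libraries held only 3 alignments in the COX1 window and 3 in the 16S window 2051 to 2100, where the ratios of summed alignments per total were 1.13 (exact 95% interval 0.292 to 6.40, counting error only) and 0.793 (0.181 to 4.75). The lowest were -0.59 ± 0.73 in the 12S window 351 to 400, -0.50 in the ND6 window 13651 to 13700 and -0.32 in the CYTB window 14451 to 14500. By limma-voom with adjustment, p was 1.00 for each of these. These ratios depend on the scaling. The median over all tested windows was 0.27 with the trimmed mean and -1.02 with library totals, that over the 22 was 0.01 and -1.26, and the 3 positive ratios were -0.63, -0.92 and -0.67 with library totals.

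For cycloheximide against untreated in Upf1, 0 of the 22 windows passed, beside 2.76% of the 1269, and 1 had an unadjusted p under 0.05. That was the 16S window 1151 to 1200 (limma-voom adjusted p = 0.214). It held 17 alignments over the untreated and 0 over the cycloheximide libraries of Upf1, at least 1.74-fold lower per total against a floor of 3 alignments in the cycloheximide group. The 16S window 1851 to 1900 held 13 and 0, at least 1.33-fold lower, and the 12S window 651 to 700 held 11 and 0, at least 1.12-fold lower. All 3 entered the test through untreated libraries alone, so they could differ in 1 direction only. Without Upf1 untreated A2, the first 2 of them passed (limma-voom adjusted p = 0.0109 and 0.0360), beside 16% of the 1082 windows then tested over the genome. The highest fitted log2 difference was 1.62 ± 1.10 (SE) in the TrnP window 15351 to 15400, which held 4 alignments with cycloheximide and 2 without, a ratio per total of 6.52 (0.934 to 72.1). The ND6 window 13651 to 13700 held 4 and 4, a ratio of 3.26 (0.607 to 17.5). The 12S window 401 to 450 had a fitted value of 0.66, but over the summed libraries it held 3 and 17, a ratio of 0.575 (0.108 to 1.99), and all 17 came from Upf1 untreated I.

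For cycloheximide against untreated in IgG, 0 of the 22 passed, beside 0.158% of the 1269, and none had an unadjusted p under 0.05. The 16S windows 1151 to 1200 and 1851 to 1900 each held 15 alignments over the untreated and 0 over the cycloheximide libraries of IgG, at least 1.96-fold lower against the same floor. IgG untreated I alone held 13 of the 15 in the first window and all 15 in the second. The 16S window 1201 to 1250 held 6 and 0, too few for a fold. These 16S windows entered the test through untreated libraries alone, so they could differ in 1 direction only. The COX1 window 5551 to 5600 held 8 with cycloheximide and 4 without, a ratio per total of 5.10 (1.37 to 23.2, counting error only), and its fitted log2 difference was 1.85 ± 1.04 (SE, limma-voom adjusted p = 0.603). The 16S window 2051 to 2100 held 2 and 1, and the TrnP window 15351 to 15400 held 2 and 2. In IgG untreated I, the COX1 window held none of 280 mitochondrial alignments, though this library supplied 47086 of the untreated total of 65419. The 4 untreated alignments came from IgG untreated A1 (1, total 10212) and A2 (3, total 8121). The ratio of 5.10 in the COX1 window thus rests largely on IgG untreated I.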

How the data were processed

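CLIP-seq alignments of 10 libraries were taken as deposited on mouse build mm9. Of the tools, Bowtie 0.12.6, TopHat 1.4.0 and Cufflinks 1.3.0 are listed with no role, per the submitters' processing notes. In the deposited files each line gives start and end positions (neither is a count), and the score column held 255 in every line. Per the labels' protocols, 2 random adapter nucleotides served to filter PCR copies. Distinct alignments were counted once per library. Genes and their order came from the RefSeq table of GRCm38.p6, whose mitochondrial sequence is taken to be that of mm9 chrM; strands were added from textbook knowledge. All 37 genes were used and no coordinate of that table is printed. No sequences are shown.

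Shares were compared with exact permutation tests and Benjamini-Hochberg adjustment over 6 shares (SciPy 1.17.1). Windows were tested with limma-voom (limma 3.58.1, R 4.3.3) on tallies of distinct alignments. Scaling factors were computed here, since the deposited columns are not a count table. Antibodies were compared with treatment as a covariate, and treatments in a model of 4 groups. Scaling used a trimmed mean of M values (trims of 30% and 5%). Its factors ran from 0.349 in Upf1 untreated I to 2.54 in IgG cycloheximide A1, largely opposite to depth. The totals of these libraries were 88403 and 6798. Upf1 untreated A1, with a total of 96521, had a factor of 0.515, and IgG untreated A1, with 10212, had 2.50. Scaled totals were thus more alike than the depths, so the fitted differences correct for depth only in part. Named windows were the 8 plus and 5 minus strand windows with most alignments and, as none passed a test, the 3 lowest p in each direction. Both rRNAs, all mRNAs and tRNAs with at least 10 alignments were named; TrnV, TrnA and TrnL1 were added after their values were seen. The members and lists were chosen with earlier results of these data known.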

Additional observations from a re-analysis of the deposited data

Results flagged for a closer look

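The mitochondrial share was 0.604% in Upf1 untreated I, where the other 4 Upf1 libraries lay between 0.0489 and 0.108%, and 0.587% in IgG untreated I, where the other 4 IgG libraries lay between 0.178 and 0.206%. Each stood far from the rest of its antibody's libraries, by a gap of 0.893 and 0.932 of the whole range. The I libraries had been singled out beforehand for this share, so these values describe and do not test it. Of 24 groups of libraries examined over 6 shares, these 2 held a library set apart in this way. Chance gives about 1 in 20 for independent groups. These groups overlap in libraries and the shares depend on each other, so that rate is no benchmark here.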

How the results depend on the processing

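Depth limits most statements here: 7 libraries held fewer than 40 mitochondrial alignments, and 1 alignment is 10% of those in Upf1 untreated A2. For cycloheximide against untreated, 103 of 106 recomputed shares kept their direction, and none had an adjusted p under 0.05. The rRNA and minus strand shares reached exactly 0.05 without IgG untreated I. The exceptions were the antisense share at -2.85 points without molecules found in more than 1 library, and, with the I libraries also left out (chosen after seeing the data), the minus strand share at -5.67 and the antisense share at -8.50 points. Leaving out 1 library kept the rRNA difference between -23.4 and -17.9 points. In 3 settings the permutations were too few for any share to pass. These were without the I libraries, with 38 nt reads only, and with libraries of 1 label paired (replicate block).

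For Upf1 against IgG, 78 of 106 kept their direction, and none passed, though with the replicate block none could. With distinct molecules, the minus strand, rRNA and tRNA differences were -0.898, 0.830 and -0.423 points. With every line counted, the tRNA difference was -0.947. Without the I libraries, the minus strand and rRNA differences were -0.569 and 4.66. The rRNA difference was 3.19 with 38 nt reads only, 14.0 without molecules found in more than 1 library and 23.6 with the I libraries also left out, where the antisense difference was -1.46. Leaving out 1 library gave -0.181 to 0.00233 points for the mitochondrial share, -5.61 to 4.90 for the minus strand, -5.86 to 4.402 for rRNA, -0.651 to 1.38 for tRNA, -4.72 to 3.28 for mRNA and -1.75 to 4.63 for antisense. The cause was not tested.

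For windows, 59 of 60 recomputed counts were 0. Leaving out 1 library gave 0 to 2 called windows for cycloheximide in Upf1, with 2 only when Upf1 untreated A2 was left out. Over the whole genome, the count for cycloheximide in Upf1 was 35 with trimmed mean scaling and 1 with library totals. Labels A1, A2 and I recur between groups. Libraries of 1 label deviated together with a correlation above 0.1 in 8 of 13 pairs (median 0.115). Pairs of different labels did so in 3 of 24 (median -0.025), and 8 of 10 libraries correlated best with their own label. Deviations were taken from the group mean, so in a group of 2 libraries those of A1 and A2 are exact opposites. IgG untreated A2, for example, had 0.433 with IgG cycloheximide A2 and -0.433 with IgG cycloheximide A1. Many values for equal and different labels are therefore 1 number with its sign changed. The contrast between them is partly built in and cannot settle whether libraries of 1 label are related. The main tests did not take the label as a pairing. With the replicate block the rRNA share differed by -20.5 points between treatments (exact sign-flip permutation p = 0.125, the lowest this test can give here). The minus strand share differed by 19.3 points, and 0 mitochondrial windows passed.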
